A study of Drosophila melanogaster with 9 samples.

Results

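The pairs described here lie in the interior of chromosome arm 3R of Drosophila melanogaster, the right arm of the third chromosome. They come from 2 deposited lists of interacting pairs of 10 kb bins made by Hi-C, an assay that joins and sequences DNA ends lying near each other in fixed nuclei. A pair was a member when both of its bins started between 1000001 and 26900000 on 3R, which leaves out 1 Mb at each end of the arm. There were 19410 such pairs, counting a pair found in both lists once, of 82344 in the whole series.

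The cells were Kc167, a female line established from embryos, grown at 25 °C in serum-free medium. For the list of heat-shocked cells, cultures were held at 37 °C for 20 min and fixed in formaldehyde, and chromatin was cut with the restriction enzyme HindIII. The labels of both Hi-C libraries point to this list, so it covers the 2 libraries together. This list of pairs is called the heat-shock set. The other list is called the companion set. Its cells, treatment and libraries are not named by any label used here, so a difference between the sets cannot be ascribed to heat from these files. The series also holds 7 ChIP-seq and input libraries that were not analysed here.

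Interphase fly chromosomes are folded into domains, and pairs far apart on an arm join regions that lie in different domains. Heat shock lowers the transcription of many genes and induces the heat shock genes, and arm 3R carries the Hsp70 clusters as well as the Bithorax and Antennapedia complexes. No source used here names the genome build of the bins, so no gene was assigned to a bin and no sequence is shown. Coordinates are 1-based, as deposited. On 3R they begin at the centromere side.

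The heat-shock set held 14337 interior pairs and the companion set 7093. These are 88.8% and 92.0% of the pairs of each list on 3R, where 1814 and 618 other pairs touched an end window. The lists carry no read counts, so depth is unknown. No listed score is above -2, and no listed interior pair is less than 20 kb apart. The rule for listing a pair is not given in the sources at hand, so why a pair is missing from a set is unknown. There is 1 list of each kind and no replicate, so no test between the lists was possible. Intervals are 95% intervals for counting error only. Neighbouring pairs are not independent, so the spread between cultures would be wider.

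The heat-shock set held 2.02 times as many interior pairs as the companion set (1.96 to 2.08), an excess of 7244 pairs. Over the interiors of the other 4 arms, cut by the same 1 Mb, the lists held 33946 and 19841 pairs, a ratio of 1.71 (1.68 to 1.74). Relative to these arms together, 3R stood at 1.18 (1.14 to 1.22). Against single arms it was 1.12 times the ratio on 3L (1.07 to 1.17) and 1.27 times that on 2L (1.22 to 1.33), with 2R and X between them. Pairs per Mb of interior numbered 554 on 3R in the heat-shock set and 274 in the companion set, against 409 and 239 on the other arms.

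The difference between arms depended on how bins with many partners were treated. A partner of a bin is a different interior bin it is paired with. With all bins of 100 or more heat-shock partners left out on every arm, the 3R ratio was 1.50 and that of the other arms 1.46, so 3R stood at 1.02 times the others (0.98 to 1.06). With the top 1% of bins of either set left out on each arm instead, 3R stood at 1.19 times the others (1.15 to 1.24). The first choice removes 40 of 2460 used bins on 3R and 53 of 7722 elsewhere. The second removes 35 bins on 3R (1.42% of those used) and 125 elsewhere (1.62%). Both choices take bins by their heat-shock partners, the second also by companion partners, so the fall in the ratio on each arm follows in part from the choice.

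The excess lay mostly in pairs between 1 and 5 Mb apart. Distances between bin starts had a median of 1.75 Mb (1.70 to 1.79 Mb) among heat-shock pairs and 1.11 Mb (1.05 to 1.18 Mb) among companion pairs. The quartiles were 0.75 and 4.03 Mb for heat-shock pairs, against 0.47 and 3.64 Mb for companion pairs. The longest pairs spanned 24.86 and 24.39 Mb. Pairs over 1 and up to 5 Mb apart numbered 6880 and 2389, a ratio of 2.88 (2.75 to 3.02), and made up 62.0% of the excess.

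Pairs from 50 kb to 1 Mb apart differed less between the lists. Pairs separated by 200 kb to 1 Mb numbered 3918 and 2828, a ratio of 1.39 (1.32 to 1.45), and made up 15.0% of the excess. Pairs separated by 50 to 200 kb numbered 641 and 476, a ratio of 1.35 (1.19 to 1.52). Pairs up to 50 kb apart were few, 190 and 81, and their ratio was 2.35 (1.80 to 3.08). Pairs over 5 Mb apart numbered 2708 and 1319, a ratio of 2.05 (1.92 to 2.19).

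The interior of 3R stood apart from the other arms at long distances. The other arms had a ratio of 2.09 over 1 to 5 Mb, and relative to it 3R stood at 1.38 (1.31 to 1.46). Beyond 5 Mb the relative value was 1.34 (1.24 to 1.45). Between 200 kb and 1 Mb it was 0.98 (0.93 to 1.04) and between 50 and 200 kb 1.12 (0.98 to 1.29), intervals that include 1. Up to 50 kb it was 1.35 (1.01 to 1.82). Its companion set also had a smaller share of pairs at 1 to 5 Mb than the other arms together, 33.7% (32.6 to 34.8%) against 43.3% (42.6 to 44.0%). The heat-shock shares were 48.0% (47.2 to 48.8%) and 52.8% (52.3 to 53.3%). The X was close to 3R, with 37.3% (35.8 to 38.7%) of its companion pairs at this distance. Its median companion distance was 1.12 Mb, against 1.11 Mb on 3R, so this trait is not particular to 3R.

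In finer steps the ratio was low in the first Mb and level from 1 to 5 Mb. It was 1.19 (1.12 to 1.27) up to 0.5 Mb and 1.67 (1.57 to 1.79) over 0.5 to 1 Mb. In the 8 steps from 1 to 5 Mb it lay between 2.58 and 3.0. It was 3.42 (2.92 to 4.02) over 5 to 6 Mb, the highest of the 17 steps, and was 1.52 (1.33 to 1.75) over 10 to 15 Mb. Over 15 to 25 Mb the lists held 179 and 177 pairs, a ratio of 1.01 (0.82 to 1.25).

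**Figure D1:**
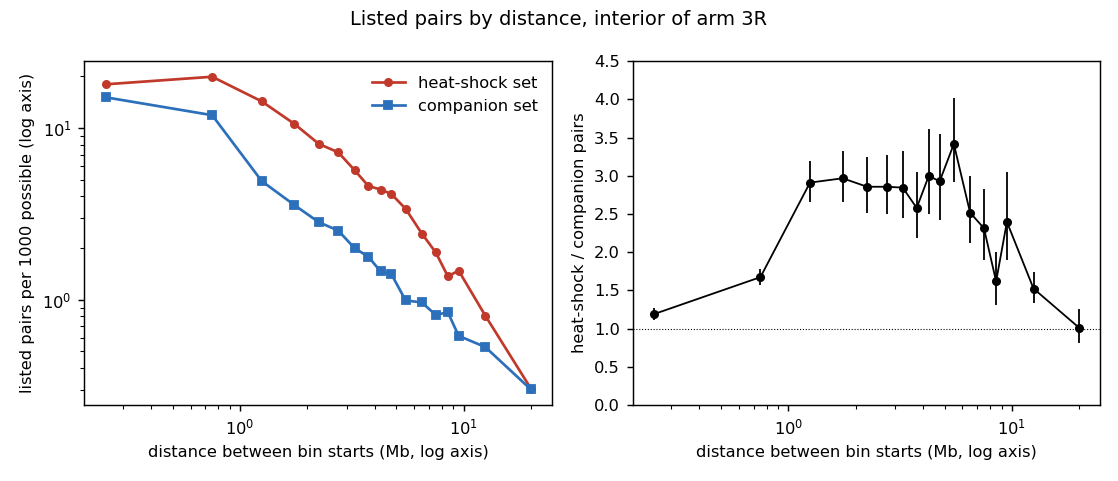
Listed pairs by distance between bin starts. Left, pairs per 1000 possible pairs of interior bins in the heat-shock set (circles) and the companion set (squares), both axes logarithmic; right, the ratio of the numbers of pairs with 95% counting intervals. The ratio is 1.19 at the shortest step, lies between 2.58 and 3.0 from 1 to 5 Mb and is 1.01 over 15 to 25 Mb.

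Counted per possible pair of interior bins, the lists thin out with distance in different ways. In the heat-shock set 17.9 of 1000 possible pairs were listed up to 0.5 Mb, 19.9 over 0.5 to 1 Mb and 14.3 over 1 to 1.5 Mb. Companion values were 15.1, 11.9 and 4.90. The heat-shock set was therefore nearly flat across the first Mb, where the companion set already declined. At 4.5 to 5 Mb the values were 4.12 and 1.41.

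Partners per bin were higher in the heat-shock set in every one of the 26 windows of 1 Mb along the interior (the last window is 0.9 Mb long, from 26 to 26.9 Mb). The mean over all 2590 interior bins was 11.1 partners in the heat-shock set and 5.48 in the companion set. Window means ran from 6.25 to 21.7 in the heat-shock set and from 2.66 to 11.6 in the companion set. The window from 23 to 24 Mb had the highest mean in both lists, 21.7 and 11.6. The lowest were at 15 to 16 Mb in the heat-shock set, with 6.25, and at 26 to 26.9 Mb in the companion set.

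The ratio of pair ends, which are the partners summed over the bins of a window, ranged from 1.51 to 2.80. The 3 highest ratios were at 26 to 26.9 Mb, with 669 and 239 ends (2.80, 2.41 to 3.26), at 25 to 26 Mb, with 1258 and 456 (2.76, 2.48 to 3.08), and at 6 to 7 Mb, with 1667 and 611 (2.73, 2.49 to 3.0). The 3 lowest were at 13 to 14 Mb, with 863 and 572 ends (1.51, 1.36 to 1.68), at 3 to 4 Mb, with 1098 and 690 (1.59, 1.45 to 1.75), and at 9 to 10 Mb, with 648 and 387 (1.67, 1.47 to 1.90). High and low windows thus stood near each other on the arm: 3 to 4 Mb was low, and 4 to 5 Mb had a ratio of 2.63 (2.37 to 2.92).

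Against the ratio of the whole interior, 2.02, the interval lay wholly above in 6 windows and wholly below in 9, and it included 2.02 in the other 11. The 6 windows above were at 1 to 2, 4 to 5, 6 to 7, 10 to 11, 25 to 26 and 26 to 26.9 Mb. A pair inside a window gives it 2 ends, so these intervals are too narrow.

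In numbers, the excess was spread along the arm and was not held by a few windows. The 5 windows with the largest excess were 6 to 7 Mb (1056 ends), 23 to 24 Mb (1010), 25 to 26 Mb (802), 4 to 5 Mb (790) and 1 to 2 Mb (732). Together they held 30.3% of the excess of 14488 ends on 19.3% of the interior, where 23.3% of the companion ends lay. The 3 smallest were 9 to 10 Mb (261 ends), 13 to 14 Mb (291) and 17 to 18 Mb (292). The windows from 10 to 18 Mb held 23.4% of the excess on 30.9% of the interior bins, and both flanks held 38.3% each, on 34.7% towards the centromere and 34.4% towards the telomere.

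Rich bins set part of this pattern. With the top 1% of bins of either list left out, which is 35 bins, the ratio at 6 to 7 Mb moved from 2.73 to 2.15 (1.92 to 2.41) and that at 5 to 6 Mb from 2.20 to 1.44 (1.28 to 1.64). At 25 to 26 Mb, which holds 2 such bins, it moved from 2.76 to 2.49 (2.19 to 2.84). At 26 to 26.9 Mb, which holds none, it moved from 2.80 to 2.75 (2.36 to 3.22). Small moves were not confined to this end of the interior. Towards the centromere, at 1 to 2 Mb, the ratio moved from 2.23 to 2.05 (1.85 to 2.27). At 23 to 24 Mb, which holds 7 such bins, the ratio moved from 1.87 to 1.80 (1.64 to 1.98). At 22 to 23 Mb it moved from 2.29 to 2.12 (1.85 to 2.44). The range over windows was then 1.34 to 2.75. This setting was chosen for single windows after the data were seen.

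**Figure D2:**
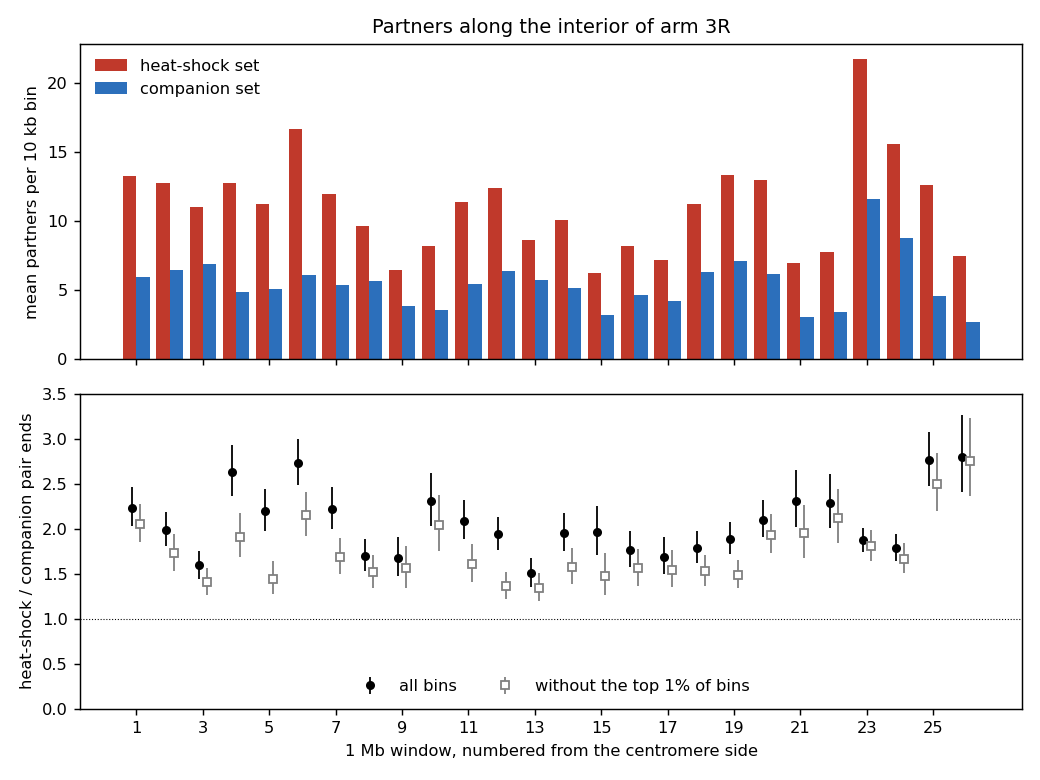
Partners along the interior of 3R in 1 Mb windows; window 1 starts at 1 Mb and window 26 at 26 Mb. Top, mean partners per 10 kb bin in the heat-shock set (left bar of each pair) and the companion set (right bar); bottom, the ratio of pair ends with 95% counting intervals, with all bins (filled) and without the 35 bins in the top 1% (open). All ratios are above 1. Without the top bins, windows 25 and 26 are at 2.49 and 2.75.

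At equal length the totals are the same, so windows must lie on both sides of 1, and only their order along the arm is informative. When the 7093 strongest heat-shock pairs were set against all 7093 companion pairs, the ratio of ends was 1.52 at 6 to 7 Mb, 1.36 at 4 to 5 Mb and 1.30 in each of the windows at 25 to 26 and 26 to 26.9 Mb. It was 0.65 at 13 to 14 Mb, 0.67 at 3 to 4 Mb and 0.78 at 8 to 9 Mb. At 9 to 10 Mb it was 0.80. The 3 windows with the highest ratios in the full sets lay above 1, and the 3 with the lowest below it. The strongest pairs are part of the same heat-shock set, and these windows were chosen by their ratios in it. This likeness therefore follows in part from the choice and is no separate check.

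Pairs between windows carried the excess more than pairs inside them. Pairs with both bins in the same window numbered 2419 and 1794, a ratio of 1.35 (1.27 to 1.43), and held 8.63% of the excess. Pairs of neighbouring windows had a ratio of 1.85 (1.76 to 1.95) and held 25.7%. Pairs 2 to 4 windows apart numbered 4758 and 1668, a ratio of 2.85 (2.70 to 3.02), and held 42.7%. Of those 69 window pairs, 68 held more heat-shock pairs. At 10 or more windows apart the ratio was 1.44 (1.29 to 1.60), and 84 of 136 window pairs held more heat-shock pairs and 37 fewer.

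Inside 4 windows the heat-shock set held fewer pairs than the companion set, although it was the longer list. At 13 to 14 Mb there were 49 heat-shock and 91 companion pairs, a ratio of 0.54 (0.37 to 0.77). At 3 to 4 Mb they were 173 and 212 (0.82, 0.66 to 1.00), at 12 to 13 Mb 69 and 95 (0.73, 0.52 to 1.00) and at 8 to 9 Mb 46 and 67 (0.69, 0.46 to 1.01). The interval lay below 1 at 13 to 14 Mb and included 1 in the other 3. The opposite was seen at 26 to 26.9 Mb, with 158 and 40 pairs (3.95, 2.78 to 5.74).

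Among pairs of different windows, the excess was largest between 23 to 24 and 24 to 25 Mb, with 825 heat-shock and 497 companion pairs. It was followed by 6 to 7 with 7 to 8 Mb (253 and 66), 23 to 24 with 25 to 26 Mb (219 and 55), 1 to 2 with 2 to 3 Mb (441 and 280) and 1 to 2 with 3 to 4 Mb (172 and 36). The ratios were 1.66, 3.83, 3.98, 1.57 and 4.78 in that order. Both 23 to 24 Mb and 1 to 2 Mb appear here in more than a single combination.

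**Figure D3:**
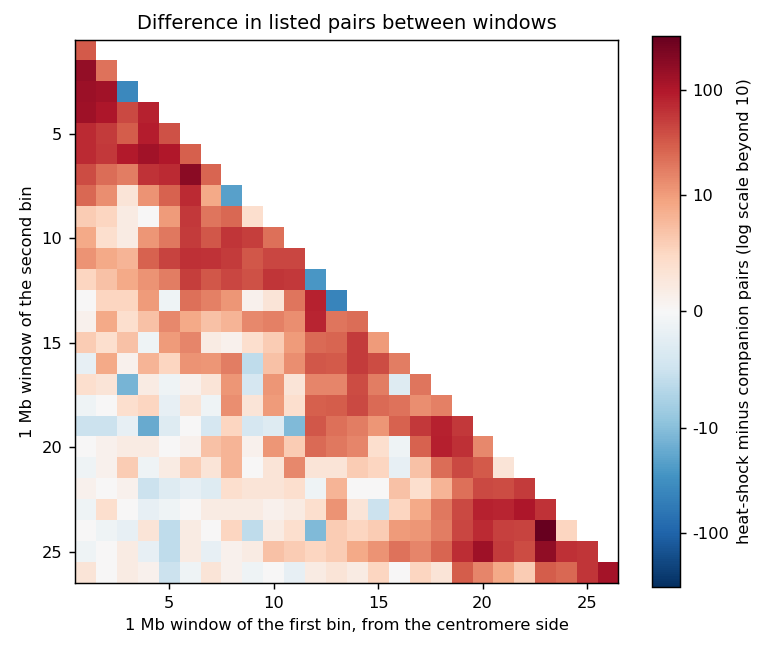
Heat-shock minus companion pairs for every pair of 1 Mb windows, on a colour scale that is logarithmic beyond 10 pairs; window 1 starts at 1 Mb. Most cells near the diagonal are positive, up to 328 pairs between windows 23 and 24; the diagonal cells of windows 3, 8, 12 and 13 are negative.

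Most bins had more heat-shock than companion partners. Of 2590 interior bins, 2460 were used in either list and 130 in neither. Of the 2460, 1911 (77.7%, 76.0 to 79.3%) had more heat-shock partners, against a background of 69.7% of the 10182 used bins in all 5 arm interiors and 67.1% in the other 4. Fewer partners were found for 389 (15.8%, 14.4 to 17.3%), against 20.7% in all interiors, and 160 had the same number. The median over these bins was 7 heat-shock and 3 companion partners. At equal length the share with more partners was 37.4% (35.5 to 39.4%), and 51.4% had fewer.

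By a stricter call, at least 2-fold more partners and at least 10 in the heat-shock set, 474 bins (19.3%, 17.7 to 20.9%) were higher, against 13.6% in all 5 interiors and 11.8% in the other 4. They lay in all 26 windows, from 6 bins at 15 to 16 Mb to 33 at 4 to 5 Mb. At least 2-fold fewer, with at least 10 companion partners, was found for 24 bins (0.976%, 0.626 to 1.45%) in 13 windows, against 1.26% in all 5 interiors. The share that was higher exceeded the background, and the interval of the share that was lower included it. Both calls depend on the lengths of the lists. The heat-shock set held 2.02 times as many pairs on 3R and 1.71 times as many on the other arms. The difference from the background thus follows in part from these ratios, and the calls were not made at equal length.

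Partners were concentrated on few bins in the heat-shock set. There were 40 interior bins with 100 or more heat-shock partners, in 19 of the 26 windows, and none with as many companion partners. They were 1.63% (1.16 to 2.21%) of the used bins, against 0.686% (0.515 to 0.897%) in the other 4 interiors. Per 1000 used bins the other arms ran from 5.10 on 2L to 9.50 on 2R. The cut is the same on every arm, and 3R had the most interior bins (2590) and heat-shock pairs per Mb (554). The higher share on 3R thus follows in part from these numbers. At equal length 16 bins reached 100. These 40 bins touched 5766 heat-shock pairs (40.2%, 39.4 to 41.0%) and 1363 companion pairs (19.2%, 18.3 to 20.2%), which is 60.8% of the excess. Since they were chosen by heat-shock partners, this share describes them and tests nothing.

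The 40 bins were not rich only in the heat-shock set. They had between 6 and 67 companion partners, with a median of 30, where the median bin had 3. The heat-shock number was between 2.33 and 20.3 times the companion number, with a median of 4.51. The bins on either side of them had a median of 5 heat-shock partners, with a range of 0 to 78.

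Bins chosen by the companion set alone also had a ratio above that of the interior. The 22 bins in its top 1% touched 2712 heat-shock and 1125 companion pairs, a ratio of 2.41 (2.25 to 2.59), against 1.95 (1.89 to 2.01) for pairs that touched none of them. Of the 25 bins in the heat-shock top 1%, 12 were among these 22.

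**Figure D4:**
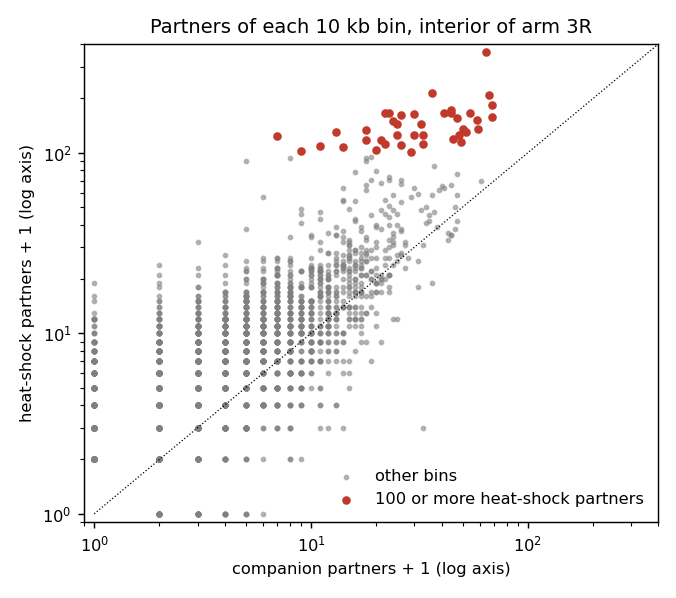
Partners of each interior bin in the companion set (horizontal) and the heat-shock set (vertical), each plus 1, on log axes; the dotted line marks equal numbers. The 40 bins with 100 or more heat-shock partners, which have 6 to 67 companion partners, lie above the line.

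The richest bin was 3R 6970001-6980000, with 358 heat-shock and 63 companion partners, which is also the largest gain (295). The bins beside it had 3 and 2 heat-shock partners. Its heat-shock partners lay on both sides, 186 towards the centromere and 172 towards the telomere, and reached from 1000001, the first interior bin, to 19450001. Within 1 Mb it was paired with 87 of 198 possible bins (43.9%, 36.9 to 51.2%) in the heat-shock set and 34 (17.2%, 12.2 to 23.2%) in the companion set. Within 5 Mb it was paired with 305 of 998 (30.6%, 27.7 to 33.5%) and 61 (6.11%, 4.71 to 7.78%). The share thus fell less with distance in the heat-shock set.

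The next largest gain was at 3R 7050001-7060000, 80 kb away, with 212 and 35 partners. Of its heat-shock partners, 107 lay towards the centromere and 105 towards the telomere, none past the bin at 14580001. The bins at 6970001 and 7050001 were not paired with each other in either list. They had 91 heat-shock partners in common, 25.4% of those of the first and 42.9% of those of the second. As companion partners they had 7 in common, which is 11.1% and 20.0%. Of all bins within 2 Mb, the first bin was paired with 36.4% in the heat-shock set and 11.8% in the companion set. Within 5 Mb these shares were 30.6% and 6.11%. The numbers in common thus follow in part from how many partners each bin has.

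**Figure D5:**
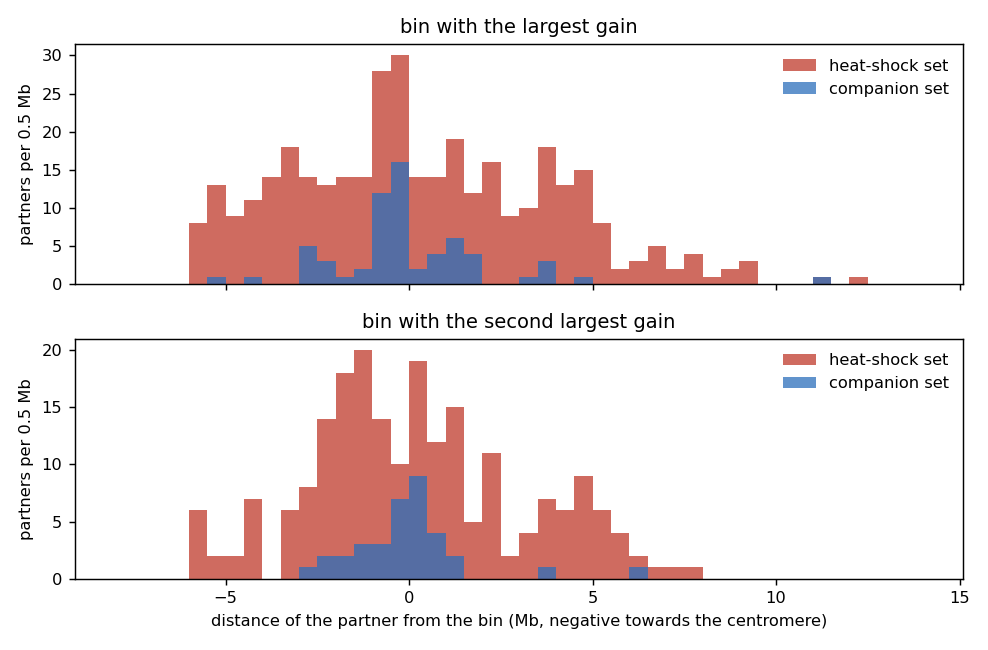
Partners of the 2 bins with the largest gain, 3R 6970001-6980000 (top) and 3R 7050001-7060000 (bottom), per 0.5 Mb of distance from the bin, negative towards the centromere. Heat-shock partners (358 and 212) lie on both sides over several Mb, and companion partners (63 and 35) lie mostly near the bin.

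The remaining largest gains were each near 143 partners. The bin at 4090001-4100000 had 164 heat-shock and 21 companion partners, that at 12930001-12940000 had 165 and 22, and that at 14730001-14740000 had 207 and 65. In all 5 bins of largest gain, between 55.2% and 66.5% of the heat-shock partners lay over 1 to 5 Mb away. The median distance to a partner was 1.63 to 2.60 Mb in the heat-shock set and 0.52 to 0.98 Mb in the companion set. Also among the 5 richest heat-shock bins were 18160001-18170000, with 182 and 67 partners, and 11080001-11090000, with 171 and 43. The bin 20 kb from the latter, at 11100001, had 165 and 43.

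The 5 bins richest in companion partners had 60 to 67. Besides the bins at 18160001, 14730001 and 6970001 they were 23610001-23620000, with 67 companion and 156 heat-shock partners, and 2220001-2230000, with 60 and 69. The last of these changed little while the others had between 2.33 and 5.68 times as many heat-shock partners.

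Losses were small beside the gains, which follows in part from the lengths of the lists, 14337 heat-shock and 7093 companion pairs. No bin can lose more than its companion partners, which were at most 67. At equal length 51.4% of bins had fewer partners and 37.4% more. The largest was at 3R 19150001-19160000, from 32 companion partners to 2 heat-shock partners. Its neighbours went the other way: the bin before it had 28 companion and 56 heat-shock partners, and the bin after it 17 and 117. The next losses were at 14030001-14040000 (35 to 18), 2140001-2150000 (24 to 11), 24450001-24460000 (30 to 17) and 12040001-12050000 (23 to 11).

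The richest heat-shock bins were almost never paired with each other. Among the 25 bins in the heat-shock top 1%, 0 of 100 possible pairs within 5 Mb were listed, which allows a share of up to 3% by a limit of 3 counts; the exact interval reaches 3.62%. Of the 22528 possible pairs of these bins with other bins within 5 Mb, 3691 were listed (16.4%, 15.9 to 16.9%). The companion values were also 0 of 100, and 954 of 22528 (4.23%, 3.98 to 4.51%). Among all 40 bins with 100 or more heat-shock partners, 4 of 271 pairs within 5 Mb were listed (1.48%, 0.404 to 3.74%), against 15.0% (14.6 to 15.3%) with other bins. At any distance, 6 of the 780 possible pairs of these 40 bins were in the heat-shock set. Among the 76 bins with 50 or more heat-shock partners, 114 of 2848 were. Such pairs were thus less rare in that wider set, and the pattern holds for the stricter cuts only.

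The rich companion bins did not show this. Among the 22 bins in the companion top 1%, 13 of 74 possible pairs within 5 Mb were in the heat-shock set (17.6%, 9.70 to 28.2%), against 12.8% (12.3 to 13.3%) with other bins. As companion pairs 7 of 74 were listed (9.46%, 3.89 to 18.5%), against 5.40% (5.08 to 5.73%). The 25 heat-shock bins were paired with 1715 different bins, 66.2% of the interior, of which 1102 were paired with 2 or more of them and 167 with 5 or more. The most for a single bin was 11 of the 25.

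Shared pairs were short, and pairs found in a single list were long. A pair was shared when both bins were the same in both lists. There were 2020 such pairs, 28.5% (27.4 to 29.5%) of the companion pairs and 14.1% (13.5 to 14.7%) of the heat-shock pairs, which left 5073 and 12317 in a single list. On the other 4 arms the shares were 29.8% (29.2 to 30.5%) and 17.4% (17.0 to 17.8%). On 3R the median distance was 0.57 Mb (0.55 to 0.59 Mb) for shared pairs, 1.87 Mb (1.76 to 1.99 Mb) for companion-only pairs and 2.10 Mb (2.04 to 2.15 Mb) for heat-shock-only pairs.

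The shared part of the companion set fell with distance. Up to 50 kb it was 67.9% (56.6 to 77.8%), and between 200 kb and 1 Mb it was 44.0% (42.1 to 45.8%). Between 1 and 5 Mb it was 16.9% (15.4 to 18.5%), and beyond 5 Mb 6.37% (5.11 to 7.82%). The shared part of the heat-shock pairs did not follow the same course. It was 28.9% (22.6 to 36.0%) up to 50 kb, 36.5% (32.8 to 40.4%) between 50 and 200 kb and 31.7% (30.3 to 33.2%) between 200 kb and 1 Mb. Between 1 and 5 Mb it was 5.87% (5.33 to 6.45%), and beyond 5 Mb 3.10% (2.48 to 3.83%). Over 1 to 5 Mb there were 6476 heat-shock-only and 1985 companion-only pairs beside 404 shared pairs. The lists differed in both directions there: 83.1% (81.5 to 84.6%) of the companion pairs at this distance were absent from the longer list.

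Along the arm, the share of companion pairs touching a window that were in both lists ran from 13.7% to 43.6%. It was highest at 2 to 3 Mb (43.6%, 39.5 to 47.7%), 23 to 24 Mb (43.2%, 40.1 to 46.4%) and 24 to 25 Mb (39.8%, 36.4 to 43.3%). It was lowest at 21 to 22 Mb (13.7%, 9.97 to 18.2%). The median companion distance in the 3 highest windows was 0.80, 0.71 and 0.79 Mb, and at 21 to 22 Mb it was 2.88 Mb. Window and distance cannot be told apart in these windows. Other windows did not keep this order. At 3 to 4 Mb the median was 0.72 Mb and 30.5% were shared. At 26 to 26.9 Mb the median was 3.78 Mb and 26.1% were shared. The part of distance was not tested.

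Sharing also followed the score. In the strongest 20% of the companion set by the authors' score, 46.9% (44.2 to 49.5%) were shared, and in the weakest 20% 15.7% (13.8 to 17.7%). In the heat-shock set these shares were 22.1% (20.6 to 23.6%) and 8.89% (7.88 to 10.0%). Pairs that touched a bin with 100 or more heat-shock partners made up 45.1% of shared pairs, 39.4% of heat-shock-only pairs and 8.89% of companion-only pairs. These bins were chosen by heat-shock partners, so the low share among companion-only pairs follows in part from the choice.

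The 5 strongest distant heat-shock pairs did not involve bins rich in heat-shock partners. Among pairs over 1 Mb apart, the strongest by score in the heat-shock set joined 3R 8410001-8420000 to 3R 13840001-13850000, 5.43 Mb apart, with a score of -49.7, and was not in the companion set. The next joined 3870001-3880000 to 17550001-17560000, 13.68 Mb apart, with -49.0; it was the strongest in the companion set, with -136. The other 3 joined 16820001 to 26420001, 15350001 to 23570001 and 8580001 to 22750001, with -34.5, -31.0 and -28.6, and all were in the companion set. The bins of these 5 pairs had between 2 and 10 heat-shock partners. Scores of the sets may be on different scales.

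The next strongest companion pair joined 11240001 to 19580001, with -105 there and -12.7 in the heat-shock set. It was followed by 3860001 with 17550001, next to the strongest pair, with -62.2 and -17.4, and by 15350001 with 23570001, with -49.9. The last of the 5, 3180001 with 8310001, scored -49.8 and was not in the heat-shock set, where the bin at 8310001 had no partner in the interior. Some bins of the strongest companion pairs had more partners. The bin at 19580001 had 22 heat-shock and 16 companion partners, and that at 3860001 had 20 and 16. Thus 4 of the 5 strongest companion pairs and 4 of the 5 strongest heat-shock pairs were in both lists.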

How the data were processed

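Per the labels, Hi-C with HindIII was carried out on heat-shocked Kc167 cells. The submitters' processing notes name Bowtie 0.12.7; the caller, its background model and the genome build are not given in the sources at hand. Each deposited list gives pairs of 10 kb bins and a score, which the authors computed; its base and test are not given, and it was used only to rank pairs within a list. No score is above -2. No column of other samples was present.

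Both lists were read with pandas 2.3.3, restricted to the arm interior, and compared by numbers of pairs, partners per bin and 1 Mb windows. Intervals on shares are Clopper-Pearson, on ratios exact conditional binomial, on medians from order statistics, and on ratios of ratios normal on the log scale (SciPy 1.17.1). Functions were tested on simulated lists. Correlations and chance models were not used. Named bins were the 5 with most partners in each list, and the 5 largest gains and losses. Named pairs were the 5 strongest over 1 Mb apart in each list. Named windows were those with the largest or smallest excess or ratio, and the 5 window pairs with the largest excess. Other bins, windows and sets were chosen after their values were seen. The members and rules were chosen with earlier results of these data known.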

Additional observations from a re-analysis of the deposited data

How the results depend on the processing

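The lists carry no counts, so depth is unknown. No paired analysis was possible because the 2 heat-shock libraries share 1 list and no replicate list exists, which also bars leaving out a library. Of 50 alternative values, 25 stayed within the counting interval of the reported value and 24 left it. In 1, the share of bins with more partners at equal length, the direction reversed. For the share of the excess in 5 windows, the interval is too narrow, since an excess is a difference between 2 counts. Every alternative for that share left the interval, so those moves cannot be judged by it. Leaving out bins of 100 or more heat-shock partners was added after the data were seen. Causes of these moves were not tested beyond what a setting itself removes.

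The ratio of 2.02 was 2.15 in the strongest 50% of each list, 1.71 without the top 1% of bins and 1.50 without bins of 100 or more partners. Relative to the other arms, 1.18 became 1.26 in the strongest 50% and 1.02 without bins of 100 or more partners. Without the top 1% of bins median distances were 1.90 and 1.35 Mb (heat-shock and companion). Of the companion pairs, those shared were 20.8% without the top bins, 18.3% at equal length, 45.8% within 1 bin and 57.6% within 2 bins. Of the heat-shock pairs, those shared were 13.2% in the strongest 50%, 12.2% without the top bins, 18.3% at equal length, 25.8% within 1 bin and 35.3% within 2 bins. The 5 windows of largest excess held 31.7% in the strongest 50%, 32.3% without the top bins, 29.0% without the bin of largest gain and 32.2% with ends of 2 Mb left out; the 10 largest of 0.5 Mb held 33.1%. At equal length no excess exists, so that share has no value. Bins with more heat-shock partners made up 69.0% in the strongest 50%, 68.3% without the top bins, 94.4% with bins of 50 kb and 37.4% at equal length, where the direction of the majority turned.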

Other observations

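Bins were grouped by their number of companion partners, and the ratio of heat-shock to companion ends was lowest in the middle of that range. On 3R it was 3.28 for bins with 1 or 2 companion partners, 2.03 for 3 to 5, 1.61 for 6 to 10, 1.59 for 11 to 20 and 2.24 for 21 to 67. On the other 4 interiors these were 2.55, 1.56, 1.45, 1.53 and 1.64. Relative to the other arms, the 3R ratio was 1.29 times as high (1.19 to 1.39) for 1 or 2 companion partners and 1.30 times (1.23 to 1.38) for 3 to 5. The relative value was 1.11 (1.06 to 1.17) for 6 to 10, 1.04 (0.99 to 1.09) for 11 to 20 and 1.36 (1.30 to 1.43) for 21 or more. Bins with few companion partners have a high ratio in part because they were chosen by a low number in that list. A further 277 bins had no companion partner and a median of 2 heat-shock partners, and 45 bins had no heat-shock partner.

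Pairs with another listed pair within 1 bin at both ends were 37.9% (37.1 to 38.7%) of heat-shock pairs and 36.9% (35.8 to 38.0%) of companion pairs. Among pairs touching a bin with 100 or more heat-shock partners this share was 50.2% (48.9 to 51.5%) in the heat-shock set, and among its other pairs 29.6% (28.7 to 30.6%). In the companion set it was 44.4% (41.7 to 47.1%) and 35.1% (33.9 to 36.3%). These bins were chosen by their number of heat-shock partners, and pairs of a bin with many partners often lie side by side. The higher share among their pairs thus follows in part from the choice.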
